A study of Mus musculus with 8 samples.

Results

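The 6 transcripts described here encode receptors carried on the surface of mature neutrophils: Csf3r, Cxcr2, Il1r2, Fpr1, Fpr2 and Cxcr4. Each was read from 1 probe set, assigned to its gene by the array's annotation, so that 6 of the 45101 probe sets in the table are concerned. The members were chosen with earlier results of these data known. Whole blood of mice was profiled on 8 arrays. The 4 control arrays carried blood of animals kept at room condition, and the 4 hypoxia arrays carried blood of animals from a closed chamber whose oxygen was lowered from 21% to 8% within 14 days, with blood taken after 15 days from the vena cava. Strain, age and sex are not stated in the labels used here. RNA was prepared from 100 µl of blood in control and from 500 µl in hypoxia, so volume and group cannot be told apart.

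Neutrophils are made in the bone marrow and held there until signals release them into blood. Granulocyte colony-stimulating factor, read by the receptor Csf3r, and the chemokines read by Cxcr2 drive release. The chemokine CXCL12 of the marrow stroma, read by Cxcr4, holds the cells back. In blood and tissue, formyl peptide receptors guide neutrophils to bacteria and damaged mitochondria, and the decoy receptor Il1r2 binds interleukin-1 without passing on a signal.

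Cxcr4, the retention receptor, was 3.64-fold lower in hypoxic blood (95% interval 2.11 to 6.28), with all 4 hypoxia arrays below all 4 controls. None of the other 5 receptors passed the test in either direction: 0 of 6 members were higher and 1 of 6 was lower by limma at an adjusted p under 0.05. On the whole array 3.65% of the 45037 probe sets tested were called higher and 2.6% lower by the adjusted p. The same counts of members held by the unadjusted p, which was under 0.05 for 11517 of these probe sets, and by the exact permutation test. Separation of the groups, which the exact test needs to pass 0.05, held for 10.5% of probe sets in each direction. The 5 other receptors varied widely within the hypoxia group: in each of them hypoxia arrays 1 and 3 stood above every control array, and hypoxia arrays 2 and 4 did not. Blood is a mixture, and Cxcr4 is carried by lymphocytes and monocytes as well as by neutrophils. In such bulk samples a change in the share of any of these cells and a change in RNA per cell cannot be told apart. The files do not pair other probe sets with genes, so markers that define neutrophils or other blood cells were not read here, and the label of mature neutrophil receptors rests on the known biology of the 6 genes.

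**Figure D1:**
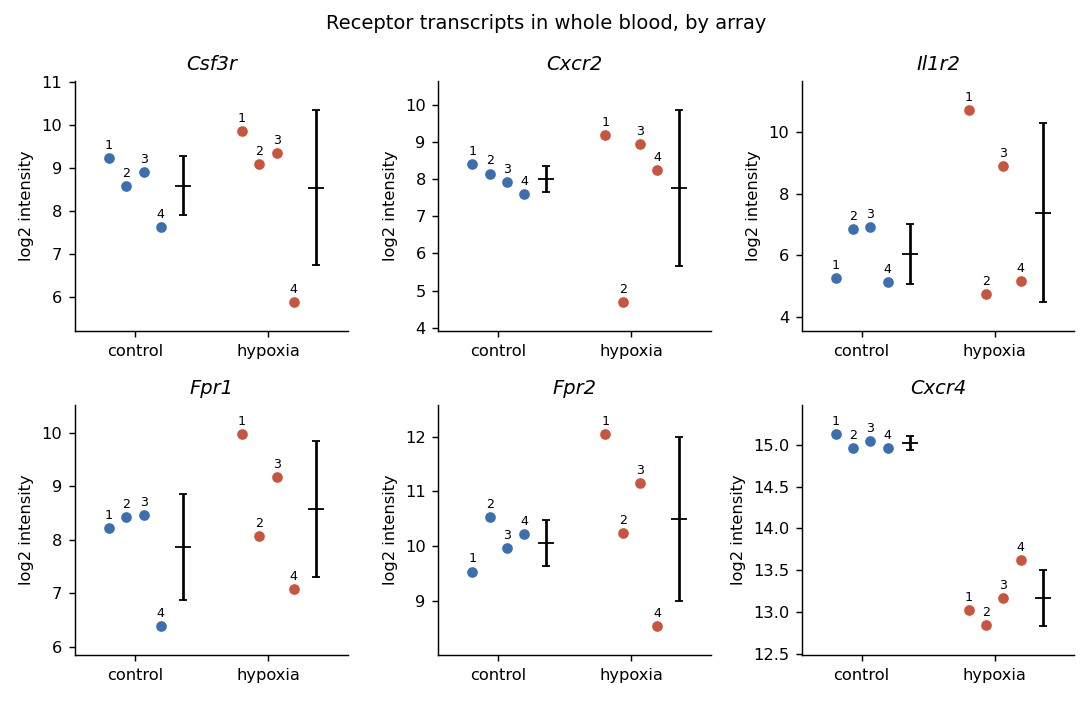
Log2 intensity (y axis) of each receptor on the 4 control and 4 hypoxia arrays (x axis); points are arrays, numbered by replicate, and bars give the mean and SD of each group. Cxcr4 groups are separated, whereas in the other 5 receptors hypoxia arrays 1 and 3 lie above all controls and hypoxia arrays 2 and 4 do not.

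Csf3r (probe set 1418806_at) encodes the receptor through which G-CSF expands the neutrophil lineage and mobilises it. Its intensity was 601, 383, 482 and 199 on control arrays 1 to 4. On hypoxia arrays 1 to 4 it was 935, 541, 649 and 58.8. Hypoxia 1 and 3 lay above the highest control, hypoxia 2 lay inside the control range, and hypoxia 4 lay below every control. The mean log2 level of the controls was 8.59 ± 0.69 (SD, n = 4), and that of the hypoxia arrays was 8.54 ± 1.81 (SD, n = 4). They differed by -0.05 (SE 0.87, 95% interval -2.04 to 1.94), at a limma adjusted p of 0.979. The sign turned without control 1, control 3 or hypoxia 4, and without hypoxia 4 the difference was 0.84.

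Cxcr2 (probe set 1421734_at) is the neutrophil receptor for the chemokines CXCL1 and CXCL2, which draw the cells out of the marrow and into inflamed tissue. Control intensities were 339, 285, 242 and 193. Hypoxia intensities were 583, 25.7, 498 and 305 on arrays 1 to 4. Hypoxia 4 lay among the controls, and hypoxia 2 lay far below them, at the 12.9th percentile of its array, where the control arrays placed Cxcr2 between the 54.9th and the 64.9th percentile. Control arrays averaged 8.02 ± 0.35 on the log2 scale (SD, n = 4) and hypoxia arrays 7.77 ± 2.10 (SD, n = 4), which is a difference of -0.25 (SE 0.95, limma adjusted p = 0.898). Without hypoxia 2 the difference became 0.78 (SE 0.43, limma adjusted p = 0.297), so the negative sign rested on that array. Its value may be near background, as no detection call was used. With all arrays kept and an offset of 100 before log2, the sign also turned, to 0.075.

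Il1r2 (probe set 1419532_at), the interleukin-1 decoy receptor, was dim in control blood, at 38.6, 117, 122 and 35.2, between the 18.0th and the 36.4th percentile of each array. In hypoxia it was 1688 and 477 on arrays 1 and 3, but 26.6 and 36.0 on arrays 2 and 4. The highest hypoxia value exceeded the lowest 63.4-fold, against 3.47-fold among the controls. The lowest, on array 2, was at the 13.3th percentile of its array, and no detection call was used, so this fold depends on values that may be near background. Hypoxia 1 and 3 stood far above the control range, hypoxia 4 fell inside it and hypoxia 2 just below. The log2 difference of 1.33 (SE 1.33) had an adjusted p of 0.573 by limma and an interval from -1.70 to 4.36, and without hypoxia 1 it was 0.22.

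Fpr1 (probe set 1450808_at) encodes the high-affinity receptor for bacterial formyl peptides. Its control intensities were 297, 343, 351 and 84.0, with control 4 apart from the other 3. Its hypoxia intensities were 1011, 271, 579 and 135. Hypoxia 2 and 4 lay inside the control range, and no hypoxia array lay below it. The difference was 0.71 on the log2 scale (SE 0.75, limma adjusted p = 0.596), and it was 0.21 without control 4. Fpr2 (probe set 1422953_at), a formyl peptide receptor of broader ligand range, was measured at 740.1, 1472, 992 and 1192 in control. In hypoxia it stood at 4249.98, 1205, 2278 and 371. Hypoxia 1 and 3 were again the high arrays, and hypoxia 4 lay below all controls. The difference was 0.44 (SE 0.73, limma adjusted p = 0.749), and it turned to -0.083 without hypoxia 1.

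Fpr1 and Fpr2 are neighbours on mouse chromosome 17, with 0 genes between them in the RefSeq annotation, and they are read in opposite directions. The RefSeq promoter table (build GRCm38.p6) held all 6 receptor genes. The 250 bases before the transcript start of both formyl peptide receptors are shown because these neighbours were both highest on hypoxia arrays 1 and 3. Capitals mark 2 motifs searched on both strands, TTNNGNAA, a loose form of the site bound by C/EBP factors of the granulocyte lineage, and GAGGAA, a core of sites bound by the myeloid factor PU.1.
Fpr1 (chr17:17883940-17884189, minus strand): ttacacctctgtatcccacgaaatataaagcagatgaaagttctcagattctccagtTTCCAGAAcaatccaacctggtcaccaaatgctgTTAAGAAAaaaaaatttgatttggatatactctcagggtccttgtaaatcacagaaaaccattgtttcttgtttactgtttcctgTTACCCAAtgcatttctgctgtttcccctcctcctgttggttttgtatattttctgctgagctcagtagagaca
Fpr2 (chr17:17887574-17887823, plus strand): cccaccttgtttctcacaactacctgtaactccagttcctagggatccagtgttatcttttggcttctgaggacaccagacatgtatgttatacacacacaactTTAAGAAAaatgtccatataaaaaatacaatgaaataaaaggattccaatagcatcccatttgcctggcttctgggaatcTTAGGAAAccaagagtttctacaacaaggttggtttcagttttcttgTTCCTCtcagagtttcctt
Fpr1 held 3 matches of TTNNGNAA and 0 of GAGGAA, and Fpr2 held 2 and 1. Of all 32851 promoter windows of this length, 36.8% held TTNNGNAA and 23.3% held GAGGAA. Csf3r and Cxcr2 each held 1 match of GAGGAA and 0 of TTNNGNAA. Cxcr4 held 1 match of TTNNGNAA and 0 of GAGGAA, and Il1r2 held 0 of either. These matches describe the letters only.

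Cxcr4 (probe set 1448710_at) binds CXCL12. It is carried by neutrophils and also by lymphocytes and monocytes, so its level in whole blood sums over several cell types. On control arrays 1 to 4 its intensity was 36025, 31951, 33837 and 31959. On hypoxia arrays 1 to 4 it was 8320, 7346, 9201 and 12649.5. The controls were close together, with the highest 1.13-fold above the lowest, and the hypoxia arrays spread 1.72-fold. Every hypoxia array was below every control, which held for 10.5% of all probe sets tested. A further 10.5% of probe sets had all hypoxia arrays above all controls, and 0 of the 6 receptors were among them.

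Mean log2 Cxcr4 was 15.03 ± 0.08 (SD, n = 4) on control arrays, and it was 13.16 ± 0.34 (SD, n = 4) under hypoxia. This is a change of -1.86 (SE 0.35, interval -2.65 to -1.07), at a limma adjusted p of 0.0243. The exact permutation test over the arrays gave p = 0.0286, the smallest that 4 against 4 allow. By rank of brightness, which a scaling factor per array leaves as it is but which also moves when other bright probe sets change, Cxcr4 was between place 177 and place 295 of 45037 on control arrays and between place 815 and place 1016 on hypoxia arrays. As a percentile it moved from 99.5 ± 0.11 (SD, n = 4) to 97.9 ± 0.20 (SD, n = 4), again with exact p = 0.0286. The adjusted p was sensitive to leaving out 1 array, and to which array that was. It rose to between 0.0562 and 0.0734 when control 1, 2, 3 or 4, hypoxia 1 or hypoxia 3 was left out, and stayed under 0.05 without hypoxia 2 or hypoxia 4, while the difference itself kept between -2.02 and -1.76.

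Over all 45037 probe sets the median difference was 0.19, and 2719 probe sets had a larger fall than Cxcr4. Among the 4504 brightest probe sets, to which Cxcr4 belonged, the median difference was -0.17 and 331 had a larger fall. Of these bright probe sets 11.7% were called lower and 18.9% higher.

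**Figure D2:**
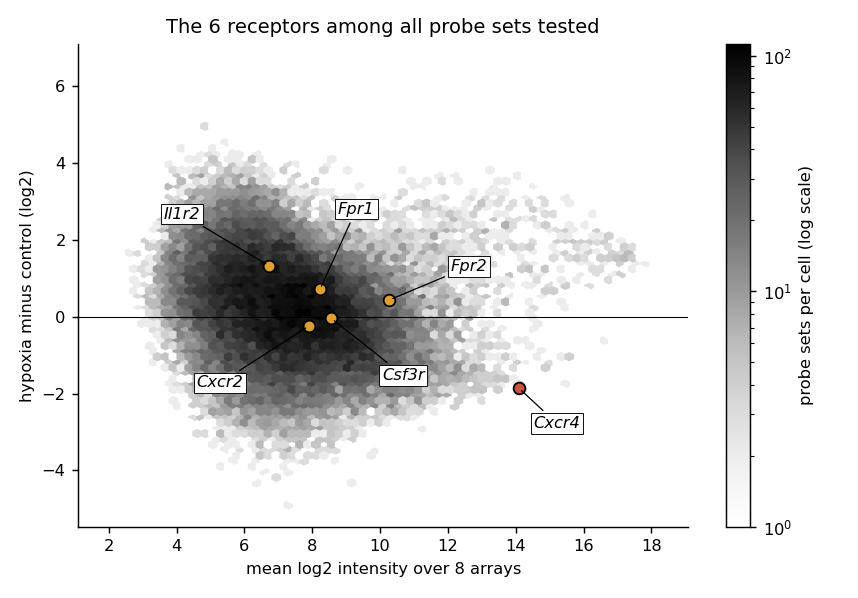
Mean log2 intensity over the 8 arrays (x axis) against the log2 difference, hypoxia minus control (y axis), for the 45037 probe sets tested, shaded by their number per cell on a log scale, with the 6 receptors marked (red for the member past the threshold, yellow for the others). Cxcr4 lies on the lower side of the bright probe sets, with 331 of 4504 below it.

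Centring each array in other ways left Cxcr4 lower throughout, with a size that depended on the reference. The log2 difference was -2.87 after quantile normalization, -2.20 relative to the array median, -2.80 relative to the bacterial and phage RNA added as hybridization control, and -1.89 relative to Actb, a cytoskeletal actin. The adjusted p-values by limma were 0.0129, 0.0231, 0.0139 and 0.0379. These settings shifted the median of all probe sets to 0.004, -0.15, -0.74 and 0.17, and relative to those medians Cxcr4 stood at -2.88, -2.06, -2.06 and -2.06. Centring subtracts a constant from all probe sets of an array, so the values of -2.06 are equal by construction. They also equal the value on the deposited scale. For Fpr1 and Fpr2 the sign turned with the hybridization controls, to -0.23 and -0.50, without passing the test.

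**Figure D3:**
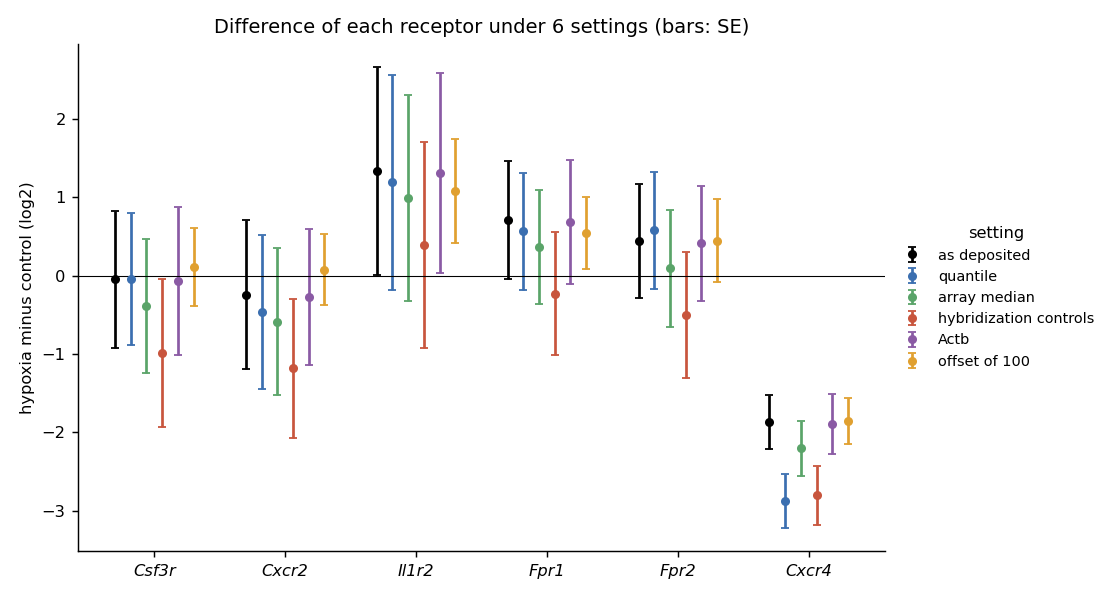
Log2 difference, hypoxia minus control (y axis), of each receptor (x axis) on the deposited scale, after 4 other scalings and with an offset of 100 added before log2; bars are the standard error from limma. Cxcr4 lies between -2.87 and -1.85 in all 6 settings. Il1r2 is above 0 in each of them, from 0.39 to 1.33, and each of the other 4 changes sign in at least 1.

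The authors' deposited table, which rests on other values of the same arrays, listed Cxcr4 at a log2 difference of -2.58 with a signed fold of -5.97 and a q-value of 0%. The other receptors were all listed on the higher side there, with q-values of 5.24% or more. In the authors' deposited table Fpr1 was at 0.86 with a q-value of 5.24%, Il1r2 at 1.08 with 10.7%, Fpr2 at 0.38 with 20.3%, Csf3r at 0.27 with 20.8% and Cxcr2 at 0.10 with 23.3%. Of its 19916 probe sets, 41.1% had a q-value under 5% and were lower, and 20.6% were higher by that rule, so a call there is common.

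Among the release, decoy and formyl peptide receptors the hypoxia arrays stood in a like order. Hypoxia 1 was the highest of all 8 arrays and hypoxia 3 the next highest in 5 of these 5 receptors. Hypoxia 4 was the lowest hypoxia array for Csf3r, Fpr1 and Fpr2, and hypoxia 2 for Cxcr2 and Il1r2. The pattern of hypoxia 1 and 3 above all controls without hypoxia 2 and 4, which was looked for after these values were seen, was present in 1563 probe sets, or 3.47% of those tested. The SD among hypoxia arrays exceeded that of 95.8% of probe sets of like brightness for Csf3r, 94.8% for Cxcr2, 99.6% for Il1r2, 73.7% for Fpr1 and 99.8% for Fpr2. For Cxcr4 that share was 37.8%. Set against the controls of the same receptor the picture differed: the SD in hypoxia over that in control was 1.28 for Fpr1, below the median of 1.53 at its brightness, and 4.07 for Cxcr4, above the median of 1.36 at its brightness. For Csf3r, Cxcr2, Il1r2 and Fpr2 the ratio was 2.62, 6.03, 2.96 and 3.57.

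**Figure D4:**
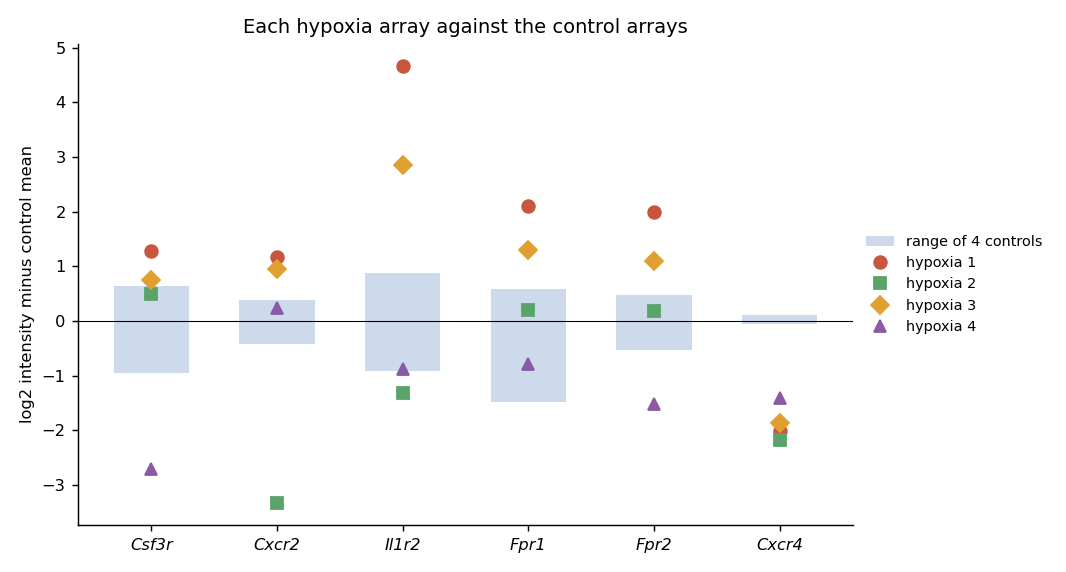
Log2 intensity of each hypoxia array minus the mean of the 4 controls (y axis) for each receptor (x axis); shaded boxes give the range of the 4 controls. Hypoxia arrays 1 and 3 lie above the box in the first 5 receptors, and all 4 hypoxia arrays lie below it for Cxcr4.

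Array-wide measures are given beside this spread. The median intensity was 229.9, 231, 245 and 240.2 on hypoxia arrays 1 to 4. The mean log2 level of the hybridization controls was 18.05, 17.84, 18.28 and 18.49, and the 3' intensity of Actb was 62646, 40645, 52641 and 62357. The 3' intensity of Gapdh, a glycolytic enzyme, was 80125, 55689, 60987 and 53899.7, highest on hypoxia 1 and next on hypoxia 3. All 4 hypoxia arrays were above all 4 controls in median intensity (163 to 202 in control), in the hybridization controls (17.05 to 17.52 in control) and in Gapdh (23309.8 to 30661 in control), and Actb overlapped. These measures thus moved with the group, as Cxcr4 did, and their part in the Cxcr4 change and in the spread of the receptors was not tested. Among the hypoxia arrays Cxcr4 was lowest on array 2 and rose through arrays 1 and 3 to array 4. That differs from the order of the other receptors and of Gapdh, but it is the order of the hybridization controls.

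Over the 8 arrays, whose values share the array's scaling and, within a group, the condition, the log2 levels of Il1r2 and Fpr1 were correlated at 0.85 by Pearson's r, and Spearman's rho was 0.93. Without the 2 arrays farthest from the median of Il1r2 this r was 0.56, so much of it rested on those arrays. Csf3r and Fpr1 had an r of 0.79 and a rho of 0.79, with an r of 0.78 without the 2 arrays farthest from the median of Csf3r. For Fpr1 and Fpr2 the r was 0.74, the rho 0.67 and the r without the 2 farthest arrays 0.93. For Cxcr2 the r was 0.04 with Csf3r, 0.24 with Fpr2, 0.36 with Fpr1 and 0.63 with Il1r2, and the rho was 0.60, 0.33, 0.67 and 0.79. Without the 2 arrays farthest from the median of Cxcr2, the r was 0.27 with Fpr2, 0.73 with Fpr1 and 0.64 with Il1r2. Cxcr2 and Csf3r had an r of 0.35 without the 2 arrays farthest from the median of Csf3r. Csf3r had an r of 0.56 and a rho of 0.62 with Il1r2, and an r of 0.77 and a rho of 0.64 with Fpr2. Il1r2 and Fpr2 had an r of 0.83 and a rho of 0.55, but an r of 0.34 without the 2 arrays farthest from the median of Il1r2. These values are a description of 8 arrays. For Cxcr4, whose groups are separated, no such value is given.

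Place on the array, which is free of scaling, gave the same picture for the 5 receptors other than Cxcr4. The mean percentile in control and in hypoxia was 69.2 and 67.3 for Csf3r, 59.6 and 56.3 for Cxcr2, 27.4 and 49.3 for Il1r2, 56.8 and 64.3 for Fpr1, and 86.3 and 86.5 for Fpr2. Exact permutation p-values for these ran from 0.4 for Il1r2 to 1 for Fpr2.

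The log2 ratio of Cxcr4 to each other receptor, which a global scaling factor cannot change, was examined within each array. Among these partners only Csf3r and Cxcr2 are release receptors. The ratio was lower in hypoxia on average for all 5 partners, but the groups overlapped for each. Cxcr4 over Fpr1 fell by 2.57 (SE 0.88), from 7.16 ± 0.96 (SD, n = 4) to 4.59 ± 1.49 (SD, n = 4), with 3 of 4 hypoxia arrays below every control (exact permutation p = 0.0571). Cxcr4 over Fpr2 fell by 2.30 (SE 0.91, exact p = 0.114), also with 3 of 4 arrays below every control. Cxcr4 over Il1r2 fell by 3.19 (SE 1.58), Cxcr4 over Csf3r by 1.82 (SE 1.10) and Cxcr4 over Cxcr2 by 1.62 (SE 0.99), each with exact p = 0.143. In the ratios to Csf3r and Cxcr2 a single hypoxia array, number 4 and number 2, lay above every control. All 15 ratios among the 6 receptors missed the threshold, and the 5 ratios of Cxcr4 had an adjusted p of 0.367. A change of Cxcr4 relative to the other receptors was thus not shown on the deposited scale. After quantile normalization, which is not a single factor per array, Cxcr4 over Il1r2, over Fpr1 and over Fpr2 stood at -4.06, -3.44 and -3.45, hypoxia minus control, with separated groups (exact p = 0.0286 each, before adjustment). The groups were also separated, at the same exact p, for Cxcr4 over Fpr1 with an offset of 16 (-2.53) and, with an offset of 100, for Cxcr4 over Cxcr2 (-1.93), over Il1r2 (-2.93) and over Fpr1 (-2.39). Offsets draw dim values together.

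**Figure D5:**
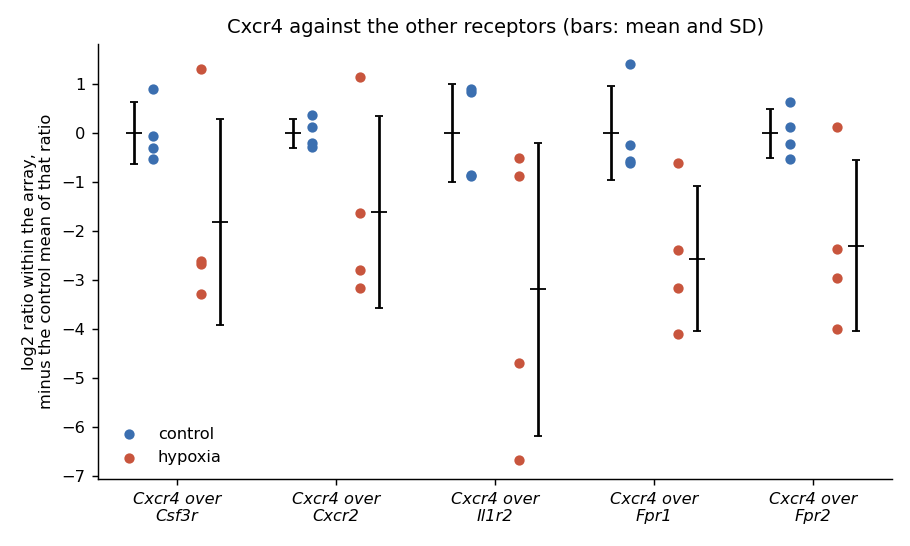
Log2 ratio of Cxcr4 to each other receptor within an array, minus the control mean of that ratio (y axis), for the 5 partners (x axis); points are arrays, bars the mean and SD of each group. In each ratio 2 or 3 of the 4 hypoxia arrays lie below every control.

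The promoters of Cxcr4 and Il1r2 are shown because Cxcr4 was the receptor past the test and Il1r2 held the most matches of the hypoxia response core. That core is the short site at which hypoxia-inducible factors bind, searched as ACGTG and as GCGTG on both strands and marked in capitals in the 250 bases before the transcript start (RefSeq, GRCm38.p6).
Cxcr4 (chr1:128592300-128592549, minus strand): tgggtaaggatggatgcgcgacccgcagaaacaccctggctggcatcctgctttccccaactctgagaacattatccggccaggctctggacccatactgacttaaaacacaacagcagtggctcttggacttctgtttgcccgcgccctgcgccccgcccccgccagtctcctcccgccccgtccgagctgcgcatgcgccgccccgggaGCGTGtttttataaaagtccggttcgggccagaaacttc
Il1r2 (chr1:40085843-40086092, plus strand): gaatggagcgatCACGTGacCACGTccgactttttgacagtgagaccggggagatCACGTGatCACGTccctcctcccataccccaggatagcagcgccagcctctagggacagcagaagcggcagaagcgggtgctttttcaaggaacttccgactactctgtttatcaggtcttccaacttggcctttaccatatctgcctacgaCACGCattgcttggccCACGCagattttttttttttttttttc
Cxcr4 held 1 match, of GCGTG, 39 to 35 bases before the start. Il1r2 held 6 matches of ACGTG and 2 of GCGTG. Some of the ACGTG matches overlap as the 2 strands of a palindrome, CACGTG. That palindrome lies 238 to 233 and again 195 to 190 bases before the start. The windows of Csf3r, Cxcr2, Fpr1 and Fpr2 held 0 of either. Of all 32851 windows, 16.6% held ACGTG, 28.2% held GCGTG and 38.6% held at least 1 of them. Cxcr4 fell and Il1r2 was high on only 2 of 4 hypoxia arrays, and nothing about binding follows from the letters.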

How the data were processed

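Total RNA of mouse whole blood was copied from an oligo(dT) primer, amplified in 1 cycle, labelled with biotin and hybridized, per the labels' protocols. The deposited value table holds linear intensity for 45101 probe sets on 8 arrays. Its trimmed mean, without 2% of probe sets at each end, was about 500 on every array. GCRMA, RMA and Partek are named without a role in the submitters' processing notes, and no label or header says which step made the deposited intensities. The authors' deposited table of their own comparison gives, per the file headers, a SAM score, a signed fold and a fold ratio, a difference that from its values is on the log2 scale, and a q-value in percent.

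Intensities under 1 (14 values) were set to 1 and log2 was taken. The 64 control probe sets were set aside, and limma 3.58.1 under R 4.3.3 was run on the other 45037 (lmFit and eBayes, no covariate), with Benjamini-Hochberg adjustment over all of them and a threshold of 0.05. Adjusted p-values of single members come from this fit, or from the same fit under the alternative named beside them. The step was tested on simulated data. Single ratios and percentiles were tested by exact two-sided permutation, which with 4 against 4 cannot go below 0.0286. No depth exists for arrays, and 4 arrays per group limit the precision. Replicates are separate samples by their labels, but no label says that each came from its own animal. The p-values then cover only the spread among these samples, which may be technical.

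The probe sets were assigned to genes by the array's annotation, and all 6 members were named by that rule. Members, motifs and lists were chosen with earlier results of these data known. The lists of ligands, related receptors, granule proteins and cell type markers that were planned were not tested, since no table used here pairs their probe sets with genes. Alternatives covered the scaling, an offset, a filter on dim probe sets, the prior, array weights, the replicate number as a block and leaving out each array.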

Additional observations from a re-analysis of the deposited data

Results flagged for a closer look

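In 2 places 1 array of a group of 4 stood far from the other 3 (Dixon's ratio of the gap to the range, past its 95% limit). Fpr1 had a log2 intensity of 6.39 on control 4, where the other controls lay between 8.22 and 8.46. The log2 ratio of Cxcr4 over Csf3r was 7.75 on hypoxia 4, where the other hypoxia arrays lay between 3.15 and 3.83, and Csf3r intensity on that array was 58.8. Among the 42 groups examined chance gives about 2.1 such cases.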

How the results depend on the processing

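Cxcr4 was lower in all 20 alternatives, by limma at -2.87 to -1.76, and lost the threshold in 7: with the replicate block, where the difference stayed at -1.86 (adjusted p = 0.129) and 0 members were lower, and in 6 of the 8 fits with 1 array left out. All 8 of those fits gave -2.02 to -1.76, with 0 or 1 members lower. With the replicate block limma called 0 of 45037 probe sets in either direction (10348 had an unadjusted p under 0.05, Cxcr4 among them), so the lost call is the array-wide outcome. With 1 array left out, the share of all probe sets called lower ran from 0.169% to 2.78%, against 2.6% with all arrays. Under the 4 other scalings 593 to 1232 probe sets were called higher, against 1643 on the deposited scale, and 408 (relative to Actb) to 6129 (relative to the hybridization controls) were called lower, against 1173. Over all probe sets the replicate numbers showed no pairing: same-numbered arrays had correlations of deviations from -0.018 to 0.0064. Of 4 control arrays, 0 went best with the hypoxia array of their number. With 4 arrays per group this cannot exclude a pairing. With the block the SE fell for Csf3r (0.87 to 0.58), Cxcr2, Il1r2 and Fpr1 (0.75 to 0.51). It rose for Fpr2 and Cxcr4 (0.35 to 0.42). None of the other 5 members passed the threshold in any alternative. Their signs were less firm. Csf3r turned to 0.000651 with an offset of 16, 0.11 with an offset of 100 and 0.034 with array weights, and Cxcr2 to 0.075 with an offset of 100. Relative to the hybridization controls Fpr1 was at -0.23 and Fpr2 at -0.50. With 1 array left out the differences ran from -0.49 to 0.84 for Csf3r, -0.72 to 0.78 for Cxcr2 and -0.083 to 1.09 for Fpr2. Il1r2 and Fpr1 kept their sign in those fits. The ratio of Fpr2 over Fpr1 turned from -0.27 to 0.012 after quantile normalization and to 0.28 without control 4. Cxcr2 over Csf3r turned to 1.01 and Fpr2 over Cxcr2 to -0.26 without hypoxia 2, and Fpr1 over Il1r2 to 0.023 without hypoxia 1, whereas the 5 ratios of Cxcr4 kept their sign with 1 array left out. The cause of these turns was not tested. Il1r2 was too dim for the filter that kept probe sets brighter than the median, so it has no value there. Ratios with 1 array left out were not tested.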

Other observations

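For Il1r2 the size of the shift depended on how the arrays were averaged. The mean intensity in hypoxia was 7.12-fold that in control, and 2.30-fold without hypoxia 1, while the mean log2 difference corresponds to 2.51-fold. The authors' deposited table gave a fold ratio of 3.80 beside a log2 difference of 1.08, which corresponds to 2.12-fold. For Cxcr4 the ratio of mean intensities, hypoxia over control, was 0.280 and the fold from log2 values 0.275, and the authors' deposited table gave a fold ratio of 0.167, with 0.168 from its log2 difference.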
